A study of Mus musculus with 36 samples.

Results

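Prdm1, Bcl6, Id1, Id2, Id3 and Rbpj encode nuclear proteins that repress transcription, or that hold transcription factors off DNA, and that have been linked to osteoclasts, the multinucleated cells that resorb bone. They were taken by gene symbol from the expression table, 1 row per gene, and make up 6 of its 38942 genes. All 6 passed the filter on low values. Monocytes from mouse bone marrow were sorted by surface Ly6C, a marker of monocyte subsets, and profiled by RNA sequencing. The subsets were high (Ly6Chi), intermediate (Ly6Cint) and negative (Ly6Cneg) cells. The cells were collected at day 0 in MCSF, the growth factor of monocytes and macrophages (the BMM stage), or after 4 days in RANKL, the cytokine that drives osteoclast formation, at 40 ng/ml beside MCSF at 20 ng/ml (the OC stage). The mice were wild type (WT, called cWT in the treatment protocol) or carried the label of an Irf8 conditional knockout (cKO). Irf8 encodes a transcription factor of monocyte development. No source used here gives the Cre driver, the floxed exon, the strain, the age or the MCSF dose at day 0. Each of the 12 groups had 3 libraries, except WT Ly6Cneg cells, which had 2 at each stage. That gave 34 libraries of 36 labelled samples, and the remaining 2 were not analysed here. The labels do not say whether libraries of a group came from separate animals or cultures, so p-values rest on a spread among libraries that could be technical.

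Prdm1 encodes Blimp1, a zinc-finger repressor. In mouse osteoclast precursors RANKL induces it, and it represses Irf8 and Bcl6, genes that restrain the osteoclast fate. Bcl6 is a second zinc-finger repressor, which in mouse osteoclasts acts on Nfatc1, Ctsk and Dcstamp. The Id proteins have a helix-loop-helix domain and no DNA-binding region, so they dimerise with E proteins and keep them from DNA, and BMP signals acting through SMAD proteins induce their genes. Rbpj is the DNA-binding factor of the Notch pathway. It recruits corepressors until a cleaved Notch receptor joins it, and in mice its loss in myeloid cells raises osteoclast formation.

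Several properties of the libraries bear on what follows. Within each subset and stage the Irf8 values of the cKO libraries all exceeded those of WT, with means apart by 0.68 to 1.88 on the log2 scale, so cKO is used here as the name of a label. A gene total cannot check the deletion of an exon. Group means of the Y-linked gene Ddx3y were 5.23 to 6.12 in WT and 10.53 to 10.77 in cKO, so the mix of sexes and the genotype cannot be told apart. The 7 monocyte markers were detected in every library, at a summed level (log2 of the values added on the linear scale) of 17.51 to 19.50 at the BMM stage. The 10 osteoclast markers were detected in every library too. Their summed level was 13.80 to 16.03 at the BMM stage and 16.87 to 20.50 at the OC stage, lowest in WT Ly6Cneg OC (16.87 to 17.01). The summed monocyte level of that group was higher, at 18.18, so OC is used here as the name of a stage. The 7 neutrophil markers had a summed level of 19.62 to 20.57 in cKO Ly6Chi BMM and 16.37 to 16.77 in WT. In Ly6Cint BMM it was 20.41 to 20.59 in cKO and 19.06 to 19.20 in WT. In these cKO groups it lay above the summed monocyte level, which was 18.72 to 18.99 in Ly6Chi and 18.82 to 18.89 in Ly6Cint BMM. Of 7 stromal markers 6 were detected in all cKO Ly6Cneg OC libraries, at a summed level of 13.98 to 14.53 against 8.12 to 11.36 in the other 11 groups, with Col1a1 at 13.1 and the osteoblast marker Bglap near the minimum at 4.4. The 7 markers of mast cells, basophils and eosinophils were all detected in WT Ly6Cneg BMM, at a summed level of 12.15 to 12.44 against 7.85 to 9.37 elsewhere. In such bulk samples fewer cells of a type and less RNA per cell cannot be told apart. The libraries also differed in how many of 1051 olfactory receptor genes had reads. Group means were 559.3 to 852.3 in Ly6Cneg cells, 387.7 to 612 in Ly6Chi and Ly6Cint BMM, and 126 to 288.3 in Ly6Chi and Ly6Cint OC. The part of such background reads in the differences was not tested.

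Promoter sequences were available for 5 of the 6 genes, in 7 entries of 300 bases, each running from 250 bases before to 50 bases after a RefSeq start (GRCm38.p6, the assembly of mm10). The search covered both strands for 7 motifs. The entries below are shown because they hold matches to the motif of a factor named above or of a signal that acts on the gene. The Prdm1 entry (chr10:44458699-44458998, minus strand) and the more upstream Rbpj entry (chr5:53590096-53590395, plus strand) each lie at a start inside the annotated gene. Both hold TGGGAA, the core letters of the motif that Rbpj itself binds. The capitals mark it, on either strand.
Prdm1: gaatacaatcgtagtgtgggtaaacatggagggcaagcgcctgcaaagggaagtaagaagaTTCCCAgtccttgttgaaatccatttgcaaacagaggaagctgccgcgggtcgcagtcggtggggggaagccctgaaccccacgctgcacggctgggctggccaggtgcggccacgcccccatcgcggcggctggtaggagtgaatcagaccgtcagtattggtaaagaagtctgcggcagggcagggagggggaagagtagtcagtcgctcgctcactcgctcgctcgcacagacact
Rbpj: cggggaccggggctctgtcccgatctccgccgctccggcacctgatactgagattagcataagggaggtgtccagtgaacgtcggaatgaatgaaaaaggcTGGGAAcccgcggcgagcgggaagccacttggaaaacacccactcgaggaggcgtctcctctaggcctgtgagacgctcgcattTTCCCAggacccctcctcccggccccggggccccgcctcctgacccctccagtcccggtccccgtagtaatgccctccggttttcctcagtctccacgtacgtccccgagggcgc

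In the Prdm1 entry the match was on the opposite strand, at position -189 from the start, and the Rbpj entry held matches at positions -149 and -65. TGGGAA was present in 25.6% of 32851 mouse promoter entries of this length, so 1 match is common. The downstream Bcl6 entry (chr16:23981234-23981533, minus strand) held 3 copies of TTCNNNGAA, the palindrome bound by STAT proteins, which was present in 8.3% of entries. The Id2 entry (chr12:25096043-25096342, minus strand) held 1 copy of GGCGCC, a GC-rich motif of BMP-SMAD responses, present in 11.9%. The capitals mark these motifs.
Bcl6: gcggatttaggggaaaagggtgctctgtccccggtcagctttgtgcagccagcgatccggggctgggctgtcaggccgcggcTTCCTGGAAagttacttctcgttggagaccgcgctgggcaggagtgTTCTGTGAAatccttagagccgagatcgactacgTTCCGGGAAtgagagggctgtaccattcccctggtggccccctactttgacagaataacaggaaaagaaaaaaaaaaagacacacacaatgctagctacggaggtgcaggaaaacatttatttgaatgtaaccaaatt
Id2: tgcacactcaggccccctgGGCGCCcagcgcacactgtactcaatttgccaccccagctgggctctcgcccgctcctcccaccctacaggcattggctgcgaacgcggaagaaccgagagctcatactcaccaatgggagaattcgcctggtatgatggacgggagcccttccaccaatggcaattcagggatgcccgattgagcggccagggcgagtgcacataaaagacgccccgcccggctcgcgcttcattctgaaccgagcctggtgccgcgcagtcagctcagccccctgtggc

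The Bcl6 palindromes lay at positions -168, -122 and -88 from the start. The same Bcl6 entry also held 1 match to the composite motif of PU.1 and IRF factors (2.72% of entries), at position -28. The repeated site of IRF factors (3.44% of entries) and the Prdm1-type motif, whose matches are a subset of it (1.1%), were in none of the 7 entries. TGACGT, a cyclic AMP response word (7.51%), was in the upstream Bcl6 entry, once. These letters describe windows of 300 bases and were not tested against the expression values.

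The 6 genes varied over the 12 groups by different amounts. The expression values are on a log2 scale and are not divided by gene length, so levels were not compared between genes. The transform is not stated, and low values are drawn together, so a difference of 1 need not be a 2-fold difference. Relative depth had a 2.47-fold range, yet the level that 40 reads give ran only from 6.74 to 7.43. The lowest values of Id1 and Prdm1, 7.08 and 7.62, came nearest to that level, so their differences may understate fold differences. Group means of Prdm1 spanned 5.03, a wider range than in 99.1% of the genes tested, followed by Id1 (4.61), Id3 (4.15), Id2 (2.497), Rbpj (2.10) and Bcl6 (1.81). The pooled standard deviation within groups was between 0.10 for Bcl6 and 0.24 for Id1. Only 1 of the 204 values, of 6 genes in 34 libraries, lay at or below the level that 40 reads give in its library (6.74 to 7.43), so low depth limited few of them.

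**Figure D1:**
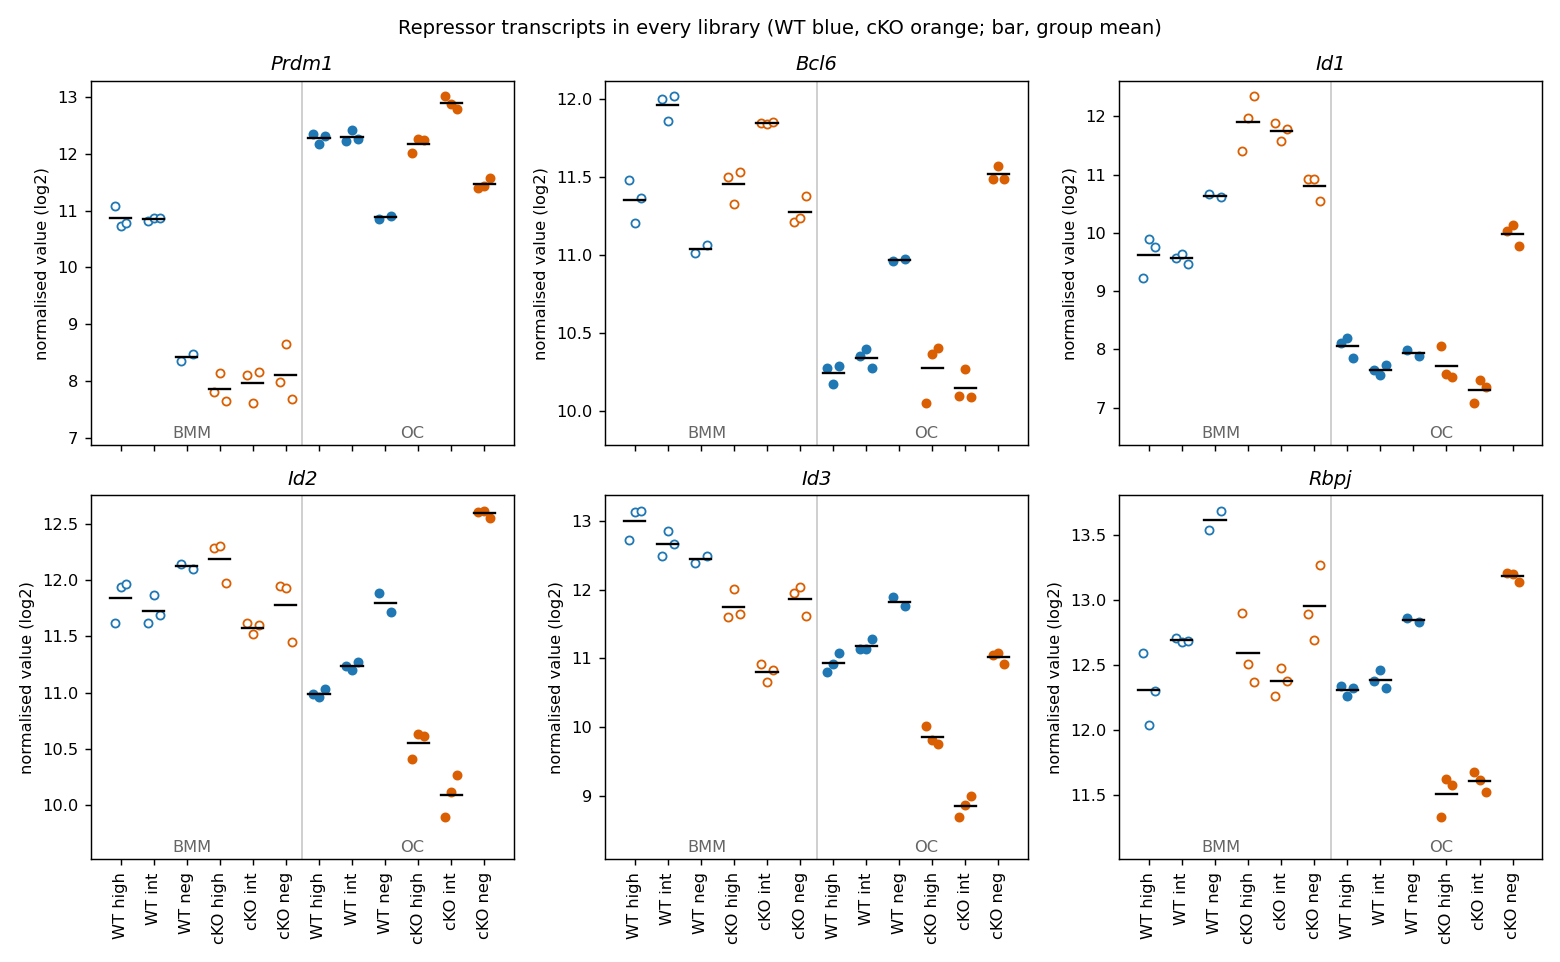
Normalised value (log2) of each of the 6 genes in all 34 libraries, with open circles for BMM, filled circles for OC, blue for WT, orange for cKO and a bar at each group mean. Prdm1 lies between 7.62 and 8.66 in the 9 cKO BMM libraries and above 10.7 in Ly6Chi and Ly6Cint WT BMM, while all of its OC values lie above 10.8.

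The first question was how the 6 transcripts differed between the BMM stage at day 0 and the OC stage at day 4, within a subset and genotype. Each difference is given with the standard error of limma's fit over 12 groups, and was called at a Benjamini-Hochberg adjusted p under 0.05 over all 38873 genes tested. Of 36 such differences 31 were called, 8 higher and 23 lower in OC. In WT cells, 5 of 6 genes were called in Ly6Chi cells against 34.1% of all genes, 5 of 6 in Ly6Cint cells against 28.4%, and 4 of 6 in Ly6Cneg cells against 12.2%. In cKO cells all 6 were called in Ly6Chi and in Ly6Cint cells, against 41.8% and 48.7% of all genes, and 5 of 6 in Ly6Cneg cells, against 42.6%. Prdm1 was the only gene of the 6 that was higher in OC in all 6 comparisons, and Id1 and Id3 were lower in all 6. The summed neutrophil level was also lower in OC in every subset, at 11.06 to 15.12 against 15.34 to 20.59 at the BMM stage. In Ly6Chi cells it went from 16.37 to 16.77 down to 11.06 to 11.39 in WT, and from 19.62 to 20.57 down to 11.28 to 12.31 in cKO, and its part in the culture differences and in their interaction with genotype was not tested. Without the comparison that holds cKO Ly6Cneg OC, where stromal markers were high, 26 of 30 were called, an alternative chosen after seeing the data.

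**Figure D2:**
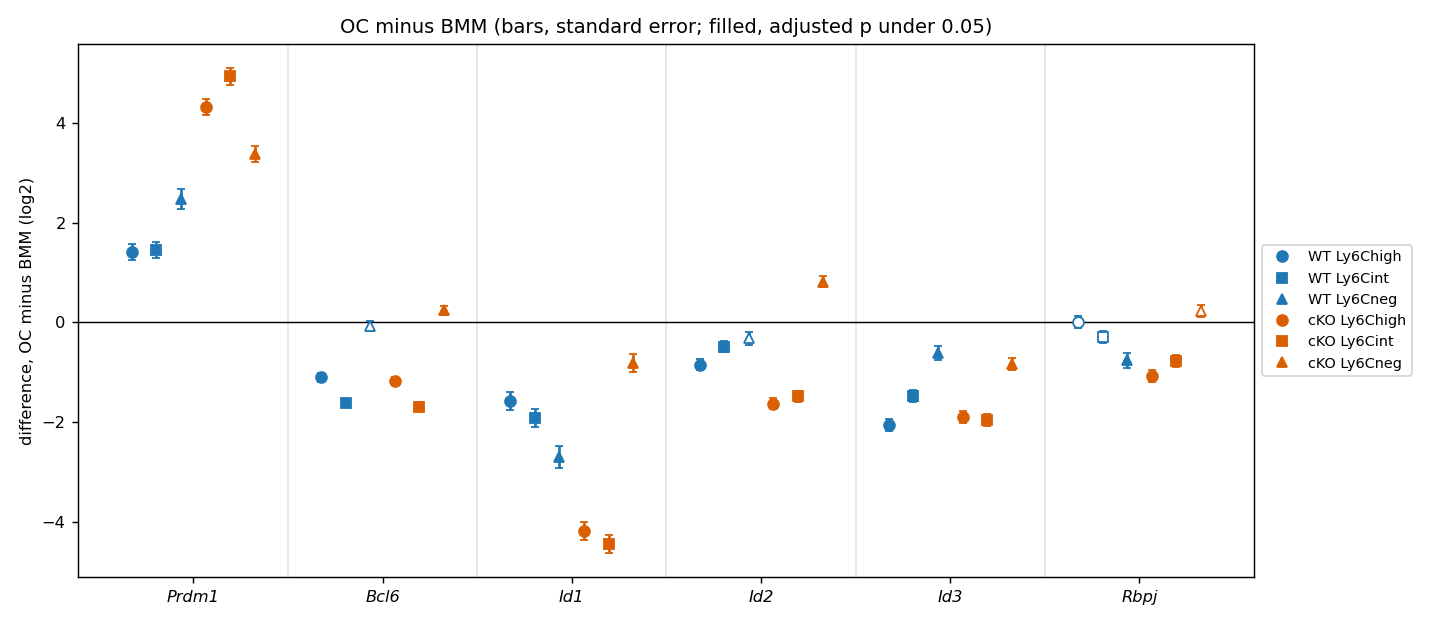
Difference between OC and BMM (log2 scale, OC minus BMM) for each gene, by genotype (colour) and Ly6C subset (shape), with bars for the standard error. Filled symbols passed an adjusted p of 0.05. Prdm1 lies above 0 throughout, and Id1 and Id3 lie below it. The Ly6Cneg triangles of Bcl6 and Rbpj, and in cKO that of Id2, lie apart from the other 2 subsets.

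The second question was how the transcripts differed with the Irf8 label. Of 36 differences between cKO and WT 23 were called, 8 higher and 15 lower in cKO. At the BMM stage 4 of 6 genes were called in Ly6Chi cells against 29.7% of all genes, 4 of 6 in Ly6Cint cells against 39.7%, and 3 of 6 in Ly6Cneg cells against 23.1%. At the OC stage 3 of 6 were called in Ly6Chi cells against 7.86%, 4 of 6 in Ly6Cint cells against 14.1%, and 5 of 6 in Ly6Cneg cells against 17.1%. Leaving out the Ly6Cneg OC comparison left 18 of 30. Id3 was called in all 6 comparisons and was lower in cKO each time. Neutrophil markers moved with the label in Ly6Chi and Ly6Cint BMM and stromal markers in Ly6Cneg OC, at the levels given above. The summed neutrophil level also moved with it in Ly6Cint OC, from 11.25 to 11.52 in WT to 14.75 to 15.12 in cKO, and in Ly6Cneg OC, from 12.28 to 12.64 in WT to 14.65 to 15.12 in cKO. In Ly6Chi OC it was 11.06 to 11.39 in WT and 11.28 to 12.31 in cKO. The part of these markers in the differences was not tested.

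**Figure D3:**
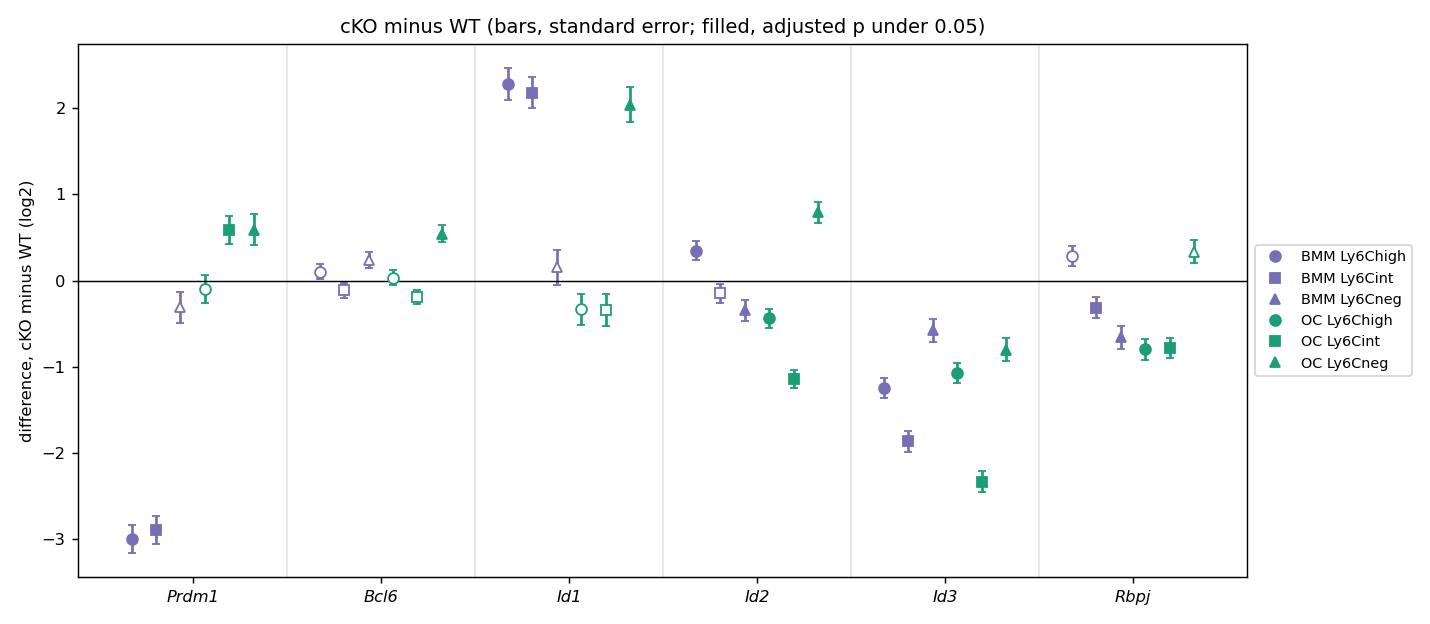
Difference between cKO and WT (log2 scale, cKO minus WT) for each gene, by stage (colour) and Ly6C subset (shape), with bars for the standard error. Filled symbols passed an adjusted p of 0.05. Prdm1 is at -2.997 and -2.89 in Ly6Chi and Ly6Cint BMM, Id1 is 2.28 and 2.18 higher there, and Id3 lies below 0 in all 6 comparisons.

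Prdm1 (ENSMUSG00000038151) lies on chromosome 10, at chr10:44437177-44528501 on the minus strand of mm10. In WT BMM its values were 11.08, 10.73 and 10.77 in Ly6Chi cells, 10.82, 10.86 and 10.88 in Ly6Cint cells, and 8.34 and 8.48 in Ly6Cneg cells. In cKO BMM they were 7.80, 8.14 and 7.65 in Ly6Chi cells, 8.10, 7.62 and 8.16 in Ly6Cint cells, and 7.98, 8.66 and 7.68 in Ly6Cneg cells. The 6 WT Ly6Chi and Ly6Cint libraries thus lay above all other BMM libraries, and the WT Ly6Cneg pair lay within the cKO range. In WT OC the values were 12.35, 12.17 and 12.31 in Ly6Chi cells, 12.23, 12.42 and 12.26 in Ly6Cint cells, and 10.85 and 10.91 in Ly6Cneg cells. In cKO OC they were 12.02, 12.26 and 12.24, then 13.01, 12.87 and 12.79, and 11.40, 11.44 and 11.57, in the same order of subsets. At the OC stage the Ly6Cneg libraries of each genotype lay below every other library of that genotype.

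Prdm1 rose from BMM to OC by 1.41 ± 0.16 in WT Ly6Chi cells (adjusted p = 3.29e-08 in limma), 1.45 ± 0.16 in WT Ly6Cint cells and 2.47 ± 0.20 in WT Ly6Cneg cells. In cKO cells it rose by 4.31 ± 0.16, 4.93 ± 0.16 and 3.37 ± 0.16 in the same subsets (limma, adjusted p = 4.83e-16 or lower). At the BMM stage it was lower in cKO by a log2 difference of -2.997 ± 0.16 in Ly6Chi cells (limma, adjusted p = 5.66e-15) and -2.89 ± 0.16 in Ly6Cint cells (1.28e-14). In Ly6Cneg BMM the difference was -0.31 ± 0.18 (adjusted p = 0.225 in limma), and it was called without cKO Ly6Cneg BMM replicate 2 (-0.59, adjusted p = 0.0041) and with the libraries shifted to the same median (-0.50, 0.0308). At the OC stage Ly6Chi cells differed by -0.10 ± 0.16 (adjusted p = 0.878). In OC Prdm1 was higher in cKO by 0.59 ± 0.16 in Ly6Cint cells and 0.59 ± 0.18 in Ly6Cneg cells (limma, adjusted p = 0.012 and 0.0223). The Ly6Cint call was lost without cKO OC replicate 1 (0.53, adjusted p = 0.0639), without WT OC replicate 1 (0.55, 0.0547) and under quantile normalization (0.44, 0.0731). The Ly6Cneg call was lost without cKO OC replicate 3 (0.54), WT OC replicate 1 (0.56) or WT OC replicate 2 (0.62).

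The rise of Prdm1 in culture was larger in cKO than in WT, by 2.90 ± 0.23 in Ly6Chi cells (adjusted p = 4.69e-11 for the interaction in limma), 3.48 ± 0.23 in Ly6Cint cells (8.7e-13) and 0.90 ± 0.26 in Ly6Cneg cells (0.0146). The Ly6Cneg interaction was lost without WT BMM Ly6Cneg replicate 2 (0.83, adjusted p = 0.0722), without WT OC Ly6Cneg replicate 1 (0.87, 0.0555) or with only the compared libraries (0.90, 0.0867). The culture and genotype differences share the cKO BMM libraries, which held the lowest Prdm1 values of the series. Between subsets, Prdm1 was lower in WT Ly6Cneg than in WT Ly6Chi cells, with a difference of -2.45 ± 0.18 at the BMM stage and -1.40 ± 0.18 at the OC stage. In cKO BMM the 3 subsets differed by at most 0.24 and no difference between them was called. In cKO OC Ly6Cint cells were 0.72 ± 0.16 above Ly6Chi cells and Ly6Cneg cells differed from them by -0.70 ± 0.16. In the order of group means, cKO Ly6Cint OC stood first at 12.89 ± 0.11 (SD, n = 3) without overlap with the next, and the next 3 groups, WT Ly6Cint, WT Ly6Chi and cKO Ly6Chi OC, overlapped. WT Ly6Cneg OC (10.88) and WT Ly6Chi and Ly6Cint BMM (10.86 and 10.85) overlapped as well, and so did the lowest 4 groups, from 8.41 to 7.86.

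Prdm1 represses Irf8 and Bcl6 in mouse osteoclast precursors. Irf8 fell in culture in all 6 comparisons, with a difference of -3.45 ± 0.08 in WT Ly6Chi cells (limma, adjusted p = 3.55e-29). Between genotypes Irf8 was higher in cKO in all 6 comparisons. Irf8 is the gene that the genotype label names, so its totals cannot show an effect of Prdm1 between genotypes. The Irf8 differences were 0.68, 0.87 and 1.27 in Ly6Chi, Ly6Cint and Ly6Cneg BMM, where those of Prdm1 were -2.997, -2.89 and -0.31. In OC they were 1.88, 1.08 and 1.58, where those of Prdm1 were -0.10, 0.59 and 0.59.

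Bcl6 (ENSMUSG00000022508) lies on chromosome 16, at chr16:23965052-23988852 on the minus strand. It overlaps Gm37419 on the other strand, and reads of the pair cannot be told apart, since no source used here says whether counting used strand. In WT BMM its values were 11.48, 11.21 and 11.37 in Ly6Chi cells, 12.001, 11.86 and 12.02 in Ly6Cint cells, and 11.01 and 11.07 in Ly6Cneg cells. In cKO BMM they were 11.50, 11.32 and 11.53, then 11.84, 11.84 and 11.85, and 11.21, 11.24 and 11.38. Ly6Cint cells were highest in each genotype, with no overlap with the other subsets. At the OC stage WT values were 10.27, 10.17 and 10.29 in Ly6Chi cells, 10.35, 10.40 and 10.28 in Ly6Cint cells, and 10.96 and 10.98 in Ly6Cneg cells. In cKO OC they were 10.05, 10.37 and 10.41, then 10.10, 10.27 and 10.09, and 11.49, 11.57 and 11.49. At this stage the order was turned, and Ly6Cneg cells were highest in each genotype without overlap.

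In Ly6Chi and Ly6Cint cells Bcl6 fell in culture by nearly the same amount in each genotype. The differences were -1.10 ± 0.09 and -1.62 ± 0.09 in WT (limma, adjusted p = 7.37e-14 and 1.11e-18), and -1.17 ± 0.09 and -1.69 ± 0.09 in cKO. In Ly6Cneg cells the difference was -0.07 ± 0.10 in WT (adjusted p = 0.817 in limma). In cKO Ly6Cneg cells Bcl6 rose by 0.24 ± 0.09 (0.0232), a call that was lost without cKO OC replicate 2 (0.21), cKO BMM replicate 1 (0.21) or cKO BMM replicate 2 (0.22), and under quantile normalization (0.02). The test of whether the culture difference was the same in the 3 subsets gave F = 66.4 in WT (adjusted p = 2.72e-11 in limma) and F = 138 in cKO (2.15e-15). None of the 3 genotype interactions was called for Bcl6. They were -0.07 ± 0.12 in Ly6Chi, -0.08 ± 0.12 in Ly6Cint and 0.31 ± 0.13 in Ly6Cneg cells, with adjusted p of 0.769, 0.705 and 0.113 in limma. The Ly6Cint interaction was called under quantile normalization (-0.30) and the Ly6Cneg interaction with library weights (0.34). Of the 6 differences between genotypes 1 was called, in Ly6Cneg OC, where Bcl6 was 0.55 ± 0.10 higher in cKO (limma, adjusted p = 2.47e-05) and stromal markers were high. Other settings called 3 more for Bcl6, in Ly6Cint BMM with libraries shifted to the same median (-0.36, but 0.09 and not called under quantile normalization), in Ly6Cneg BMM under quantile normalization (0.37) and in Ly6Cint OC with library weights (-0.17). The 4 groups from 10.34 to 10.15, the Ly6Chi and Ly6Cint OC of each genotype, overlapped from neighbour to neighbour at the low end of the order.

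The genes that Bcl6 represses in mouse osteoclasts, Nfatc1, Ctsk and Dcstamp, rose at 3 of 3 in all 6 culture comparisons, where 6.55% to 16.4% of all genes rose. Nfatc1, the master factor of osteoclast formation, rose by 2.5002 ± 0.14 in WT Ly6Chi and 1.28 ± 0.17 in WT Ly6Cneg cells, and by 3.91 ± 0.14 in cKO Ly6Cint cells. Ctsk, the collagen-degrading protease of osteoclasts, rose by 7.38 ± 0.39 in WT Ly6Chi and 2.58 ± 0.48 in WT Ly6Cneg cells. Dcstamp, which is needed for cell fusion, rose by 6.70 ± 0.16 and 3.31 ± 0.20 in the same subsets. The list's median was 6.70 in WT Ly6Chi cells, against -0.28 over all genes tested, and 2.58 in WT Ly6Cneg cells, against -0.03. In cKO Ly6Cneg cells the list rose by a median of 2.83 (all genes -0.36), where Bcl6 was 0.24 higher and not lower. These 3 genes are also osteoclast markers, so they describe the culture as much as Bcl6.

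**Figure D4:**
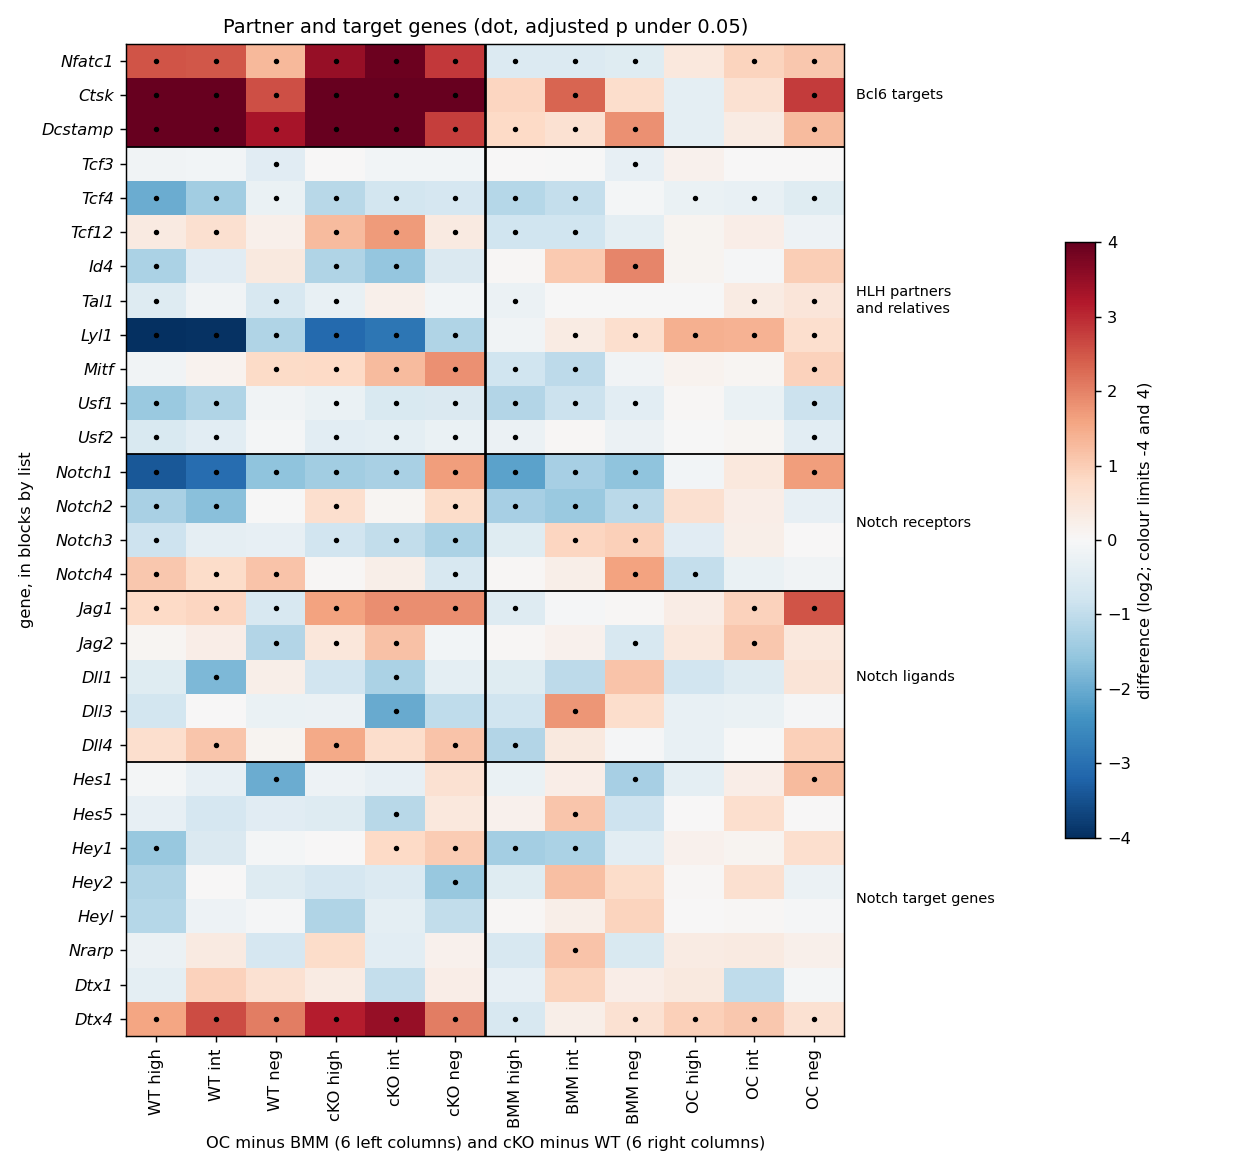
Differences of partner and target genes (log2 scale, colour limits -4 and 4) between OC and BMM in the 6 left columns and between cKO and WT in the 6 right columns, with a dot where the adjusted p was under 0.05. The Bcl6 targets rise in all 6 culture columns (Ctsk by 7.38 in WT Ly6Chi), and Lyl1 and Notch1 fall in the WT columns.

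Id1 (ENSMUSG00000042745) lies on chromosome 2, at chr2:152736251-152737410 on the plus strand, and its profile over the groups was close to the reverse of that of Prdm1. In WT BMM the Id1 values were 9.23, 9.89 and 9.76 in Ly6Chi cells, 9.58, 9.64 and 9.47 in Ly6Cint cells, and 10.66 and 10.62 in Ly6Cneg cells. In cKO BMM they were 11.42, 11.98 and 12.35, then 11.89, 11.57 and 11.78, and 10.92, 10.92 and 10.56. Every cKO Ly6Chi and Ly6Cint library lay above every WT library of that stage. WT values at the OC stage were 8.11, 8.20 and 7.86 in Ly6Chi cells, 7.65, 7.57 and 7.73 in Ly6Cint cells, and 7.99 and 7.88 in Ly6Cneg cells. In cKO OC they were 8.06, 7.58 and 7.52, then 7.08, 7.48 and 7.36, and 10.03, 10.14 and 9.77. The 3 cKO Ly6Cneg libraries lay above all other OC libraries, and they were those with high stromal markers, whose part in this was not tested.

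At the BMM stage Id1 was higher in cKO by 2.28 ± 0.18 in Ly6Chi cells (limma, adjusted p = 2.35e-11) and 2.18 ± 0.18 in Ly6Cint cells (6.42e-11). The difference in Ly6Cneg cells was 0.16 ± 0.20 (adjusted p = 0.6 in limma) and turned to -0.03 when each library was shifted to the same median. In OC it was -0.34 ± 0.18 in Ly6Chi and -0.34 ± 0.18 in Ly6Cint cells (limma, adjusted p = 0.382 and 0.298), and 2.04 ± 0.20 in Ly6Cneg cells (5.26e-09). With library weights the first 2 were called (-0.43 and -0.32, adjusted p = 0.0129 and 0.0396). From BMM to OC Id1 fell, with differences of -1.57 ± 0.18, -1.91 ± 0.18 and -2.70 ± 0.22 in WT Ly6Chi, Ly6Cint and Ly6Cneg cells, and of -4.19 ± 0.18, -4.44 ± 0.18 and -0.82 ± 0.18 in cKO. The interaction was -2.62 ± 0.26 in Ly6Chi cells (limma, adjusted p = 3.02e-09) and -2.53 ± 0.26 in Ly6Cint cells (6.11e-09). In Ly6Cneg cells it had the opposite sign, 1.89 ± 0.29 (1.5e-05). The culture difference varied with subset in WT (F = 7.87, adjusted p = 0.0117 in limma) and in cKO (F = 124, 2.27e-12), but in WT this call was lost without BMM Ly6Cneg replicate 1 (F = 5.56) or OC Ly6Cneg replicate 2 (F = 5.22).

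Id2 (ENSMUSG00000020644) lies on chromosome 12, at chr12:25093799-25097140 on the minus strand. In WT BMM its values were 11.62, 11.94 and 11.97 in Ly6Chi cells, 11.62, 11.87 and 11.69 in Ly6Cint cells, and 12.14 and 12.10 in Ly6Cneg cells. In cKO BMM they were 12.28, 12.30 and 11.98, then 11.62, 11.52 and 11.60, and 11.95, 11.93 and 11.45. The BMM groups lay close together, with means from 11.58 to 12.19. After culture the WT values were 10.99, 10.96 and 11.03 in Ly6Chi cells, 11.24, 11.20 and 11.27 in Ly6Cint cells, and 11.88 and 11.71 in Ly6Cneg cells. In cKO OC they were 10.42, 10.63 and 10.61, then 9.90, 10.12 and 10.27, and 12.61, 12.62 and 12.55. The OC groups spread much wider, and cKO held the 2 lowest group means and the highest of the series, 10.09 in Ly6Cint, 10.55 in Ly6Chi and 12.59 in Ly6Cneg cells. Stromal markers were high in cKO Ly6Cneg OC, and their part in its Id2 values was not tested.

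Id2 fell in culture in Ly6Chi and Ly6Cint cells, with differences of -0.85 ± 0.11 and -0.49 ± 0.11 in WT and of -1.63 ± 0.11 and -1.48 ± 0.11 in cKO (limma, adjusted p = 0.000356 or lower). In Ly6Cneg cells the difference was -0.32 ± 0.13 in WT (adjusted p = 0.127 in limma, and 0.00878 with library weights), and Id2 rose by 0.82 ± 0.11 in cKO (9.37e-08). The genotype interaction was -0.79 ± 0.15 in Ly6Chi, -0.99 ± 0.15 in Ly6Cint and 1.14 ± 0.17 in Ly6Cneg cells, all 3 called (limma, adjusted p = 9.12e-05, 2.1e-06 and 3.18e-06). At the OC stage Id2 was lower in cKO, with a difference of -0.44 ± 0.11 in Ly6Chi cells and -1.14 ± 0.11 in Ly6Cint cells, and higher by 0.79 ± 0.12 in Ly6Cneg cells. The Ly6Chi call was lost without cKO OC replicate 1 (-0.37, adjusted p = 0.0524). At the BMM stage 2 small differences were called, 0.35 ± 0.11 in Ly6Chi and -0.34 ± 0.12 in Ly6Cneg cells. The former was lost without WT replicate 1 (0.23), cKO replicate 1 (0.30) or cKO replicate 2 (0.29), and the latter without WT replicate 1 (-0.32), WT replicate 2 (-0.37) or cKO replicate 3 (-0.18). In WT the variation of the culture difference with subset (F = 5.34, adjusted p = 0.0436) was lost without any 1 of 13 WT libraries, with F from 3.54 to 5.204.

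Id3 (ENSMUSG00000007872) lies on chromosome 4, at chr4:136143497-136145755 on the plus strand, and was lower with the cKO label throughout. In WT BMM its values were 12.72, 13.13 and 13.15 in Ly6Chi cells, 12.49, 12.86 and 12.66 in Ly6Cint cells, and 12.39 and 12.49 in Ly6Cneg cells. In cKO BMM they were 11.61, 12.01 and 11.65, then 10.92, 10.65 and 10.83, and 11.95, 12.03 and 11.61. All cKO libraries of this stage lay below all WT libraries. For WT OC the values were 10.80, 10.93 and 11.08 in Ly6Chi cells, 11.13, 11.14 and 11.29 in Ly6Cint cells, and 11.89 and 11.76 in Ly6Cneg cells. In cKO OC they were 10.02, 9.81 and 9.76, then 8.69, 8.87 and 8.99, and 11.05, 11.08 and 10.93. Within each subset the genotypes did not overlap at this stage either, and cKO Ly6Cint OC had the lowest mean of the series, 8.85.

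The cKO libraries differed from WT in Id3 by -1.25 ± 0.12, -1.87 ± 0.12 and -0.58 ± 0.13 in Ly6Chi, Ly6Cint and Ly6Cneg BMM (limma, adjusted p = 4.65e-11, 9.02e-16 and 0.00137). In OC of the same subsets the differences were -1.08 ± 0.12, -2.34 ± 0.12 and -0.80 ± 0.13 (1.43e-08, 1.52e-17 and 1.14e-05). These 6 calls held when any 1 library was left out. Id3 fell in culture, with differences of -2.06 ± 0.12, -1.49 ± 0.12 and -0.62 ± 0.15 in WT Ly6Chi, Ly6Cint and Ly6Cneg cells, and of -1.89 ± 0.12, -1.95 ± 0.12 and -0.84 ± 0.12 in cKO. The interaction was 0.17 ± 0.17 in Ly6Chi cells and -0.23 ± 0.19 in Ly6Cneg cells, neither called (limma, adjusted p = 0.574 and 0.453). In Ly6Cint cells it was -0.47 ± 0.17 (0.0355), a call lost without any 1 of 7 of the 12 libraries compared, with values from -0.48 to -0.38, and with the libraries shifted to the same median (-0.18). The culture difference varied with subset in WT (F = 29.6, adjusted p = 4.12e-07 in limma) and in cKO (F = 27.6, 1.1e-06), being smallest in Ly6Cneg cells.

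The 3 Id genes thus differed in how they related to the label. In cKO Ly6Chi BMM the differences from WT were 2.28 for Id1, 0.35 for Id2 and -1.25 for Id3. In the same cells 16 of 20 listed BMP, TGF-beta and SMAD genes were lower in cKO, against 15.3% of all genes. In Ly6Cint BMM 15 of 20 were lower, against 14.7%, and 1 was higher, against 25%. The list mixes genes that pass on the signal with inhibitor genes, so its counts give no direction of signalling. The list's medians were -0.67 and -0.63 there, while the median over all genes was 0.28 in Ly6Cint BMM. Neutrophil markers were higher in these cKO groups, and their part in the lower values was not tested. Acvrl1 and Eng, a BMP receptor and its coreceptor, were lower in cKO, with differences of -2.13 ± 0.09 and -2.01 ± 0.09 in Ly6Chi BMM (limma, adjusted p = 5.87e-21 and 5.38e-20). In Ly6Cint BMM they were lower, with a difference of -2.05 ± 0.09 and -2.73 ± 0.09. In Ly6Cneg BMM 4 of the 20 genes were higher and 4 lower in cKO (13.6% and 9.42% of all genes). At the OC stage 4 were higher and 5 lower in Ly6Chi cells (4.25% and 3.61%), 5 and 4 in Ly6Cint cells (8.18% and 5.94%), and 4 and 2 in Ly6Cneg cells (9.53% and 7.52%). In Ly6Cint OC the inhibitor gene Smad6 was lower, with a difference of -1.84 ± 0.10.

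Of 9 helix-loop-helix genes that are partners or relatives of the Id proteins, 6 fell and 1 rose in WT Ly6Chi culture (20.4% and 13.7% of all genes; median -0.62, all genes -0.28), and 6 fell and 2 rose in cKO Ly6Chi culture (26.3% and 15.5%). Tcf4, an E protein, fell, with differences of -1.98 ± 0.07 in WT Ly6Chi and -1.11 ± 0.07 in cKO Ly6Chi cells. Tcf12, another E protein, rose by 1.26 ± 0.13 in cKO Ly6Chi and 1.69 ± 0.13 in cKO Ly6Cint cells. Lyl1, a partner of E proteins in blood cells, fell in all 6 culture comparisons, from -4.67 ± 0.10 in WT Ly6Chi to -1.20 ± 0.12 in WT Ly6Cneg cells. Mitf, which acts with osteoclast factors on genes such as Ctsk, rose by 1.83 ± 0.10 in cKO Ly6Cneg cells. The fourth Id gene, Id4, had group means of 4.22 to 6.62, close to the minimum of 3.896. In cKO BMM 6 of these 9 genes were lower than in WT in Ly6Chi cells (15.3% of all genes were), led by Usf1 (-1.16 ± 0.09) and Tcf4 (-1.14 ± 0.07), and 4 were lower and 1 higher in Ly6Cint cells (14.7% and 25% of all genes).

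Rbpj (ENSMUSG00000039191) lies on chromosome 5, at chr5:53466152-53657362 on the plus strand. It overlaps Gm10441 and Gm40304 on the other strand and has the processed pseudogenes Rbpj-ps1 and Rbpj-ps3 in the table, so its values are uncertain where counting split reads among them. In WT BMM they were 12.59, 12.04 and 12.30 in Ly6Chi cells, 12.71, 12.68 and 12.69 in Ly6Cint cells, and 13.54 and 13.69 in Ly6Cneg cells. In cKO BMM they were 12.90, 12.51 and 12.37, then 12.27, 12.48 and 12.38, and 12.90, 12.69 and 13.27. WT Ly6Cneg BMM, the group with high mast cell, basophil and eosinophil markers, lay above every other library of the series. The 8 dendritic cell markers were all detected there too, at a summed level of 11.98 to 12.12 against 9.31 to 10.75 in the other 11 groups. Against WT Ly6Chi BMM 8 of the 8 were called higher (10.6% of all genes), with a median difference of 1.64 where all genes had 0.02. Against WT Ly6Cint BMM 6 were (12.2%). The part of either marker list in the Ly6Cneg BMM values was not tested. In OC of WT mice the values were 12.34, 12.27 and 12.32 in Ly6Chi cells, 12.38, 12.46 and 12.33 in Ly6Cint cells, and 12.86 and 12.84 in Ly6Cneg cells. In cKO OC they were 11.33, 11.63 and 11.58, then 11.68, 11.61 and 11.53, and 13.21, 13.20 and 13.14. The 6 cKO Ly6Chi and Ly6Cint OC libraries were the 6 lowest of the series and did not overlap with any other group.

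Rbpj fell in culture in WT Ly6Cneg and in cKO Ly6Chi and Ly6Cint cells. In WT cells the differences were -0.00091 ± 0.12 in Ly6Chi and -0.30 ± 0.12 in Ly6Cint cells, neither called (limma, adjusted p = 1 and 0.061), and -0.76 ± 0.15 in Ly6Cneg cells (0.000214). The Ly6Cint difference was called with library weights (adjusted p = 0.000239) and with only the compared libraries (0.00481). In cKO cells Rbpj fell, with differences of -1.08 ± 0.12 in Ly6Chi and -0.77 ± 0.12 in Ly6Cint cells (3.94e-09 and 2.45e-06), and the Ly6Cneg difference was 0.23 ± 0.12 (0.122), which was called without cKO BMM replicate 3 (0.39, adjusted p = 0.0075), with library weights (0.26, 0.029) and with the libraries shifted to the same median (0.50, 0.0152). The interaction was -1.08 ± 0.17 in Ly6Chi, -0.47 ± 0.17 in Ly6Cint and 0.99 ± 0.19 in Ly6Cneg cells (limma, adjusted p = 5.37e-06, 0.0403 and 0.000216). The Ly6Cint call was lost without any 1 of 9 of the 12 libraries compared (-0.48 to -0.42) and with the libraries shifted to the same median (-0.18). In OC Rbpj was lower in cKO, with a difference of -0.80 ± 0.12 in Ly6Chi and -0.78 ± 0.12 in Ly6Cint cells (limma, adjusted p = 1.2e-05 and 6.95e-06), and the Ly6Cneg difference was 0.34 ± 0.14 (0.0939), which was called with library weights (0.00161) and with only the compared libraries (0.000637). In BMM it was lower in Ly6Cneg cells, with a difference of -0.66 ± 0.14 (0.000453) and in Ly6Cint cells with -0.31 ± 0.12 (0.037), the latter lost without WT replicate 1 (-0.31), 2 (-0.32) or 3 (-0.32), or without cKO replicate 1 (-0.26) or 3 (-0.32). In Ly6Chi BMM the difference was 0.28 ± 0.12 (limma, adjusted p = 0.0766), and it was called without WT replicate 1 (0.43) or cKO replicate 3 (0.40).

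Rbpj was higher in Ly6Cneg cells than in each other subset of the same genotype and stage in all 8 such comparisons. More olfactory receptor genes had reads in Ly6Cneg cells in each of them too, and the part of this was not tested. The widest Rbpj difference at the OC stage was 1.67 ± 0.12 against Ly6Chi cells in cKO (limma, adjusted p = 3.99e-13), and at the BMM stage 1.304 ± 0.14 against Ly6Chi cells in WT (1.4e-09). Leaving out a library ended 2 of these 8 calls. In cKO BMM, Ly6Cneg against Ly6Chi (0.36 ± 0.12, adjusted p = 0.0255) was lost without cKO Ly6Chi replicate 2 (0.32) or 3 (0.25) or Ly6Cneg replicate 3 (0.20). In WT OC, Ly6Cneg against Ly6Cint (0.46 ± 0.14, 0.0189) was lost without WT Ly6Cint replicate 3 (0.43) or Ly6Cneg replicate 1 (0.45) or 2 (0.47). With the libraries shifted to the same median, these 2 calls (0.14 and 0.27) and that of Ly6Cneg against Ly6Chi cells in WT OC (0.36) were lost. The culture difference of Rbpj varied with subset in each genotype (F = 7.999 in WT, adjusted p = 0.00894, and F = 32.3 in cKO, 4.45e-07), in WT not without BMM Ly6Cneg replicate 2 (F = 5.10).

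Of the 4 Notch receptors, whose cleaved forms bind Rbpj, 3 fell and 1 rose in WT Ly6Chi culture (20.4% and 13.7% of all genes). In WT Ly6Cint culture 2 fell and 1 rose (15.4% and 13.1%). Notch1 fell from 12.56 ± 0.66 to 9.16 ± 0.10 (SD, n = 3) in WT Ly6Chi cells, a difference of -3.40 ± 0.29 (limma, adjusted p = 5.93e-10), and the difference was -3.05 ± 0.29 in WT Ly6Cint cells. In cKO cells it fell, with differences of -1.38 ± 0.29 and -1.31 ± 0.29 in these subsets, and it rose by 1.67 ± 0.29 in Ly6Cneg cells (6.01e-05), to 11.97 ± 0.03. Notch2 fell, with differences of -1.31 ± 0.22 and -1.67 ± 0.22 in WT Ly6Chi and Ly6Cint cells. At the BMM stage 0 of the 4 receptors were higher and 2 lower in cKO Ly6Chi cells (14.4% and 15.3% of all genes). In Ly6Cint cells 1 was higher and 2 lower (25% and 14.7%), and in Ly6Cneg cells 2 and 2 (13.6% and 9.42%). Notch1 and Notch2 were lower in all 3 subsets, for example Notch1 with -2.13 ± 0.29 in Ly6Chi and Notch2 with -1.49 ± 0.22 in Ly6Cint cells. Neutrophil markers were higher in cKO Ly6Chi and Ly6Cint BMM, and their part was not tested. Of the 5 ligands 3 rose and 0 fell in cKO Ly6Chi culture (15.5% and 26.3% of all genes). In cKO Ly6Cint culture 2 rose and 2 fell (16.4% and 32.3%), and in cKO Ly6Cneg culture 2 and 0 (14.5% and 28%). In WT culture 1 rose and 0 fell in Ly6Chi cells (13.7% and 20.4%). The counts were 2 and 1 in WT Ly6Cint (13.1% and 15.4%) and 0 and 2 in WT Ly6Cneg cells (6.55% and 5.69%). Jag1 rose in cKO culture by 1.62 ± 0.10, 1.85 ± 0.10 and 1.85 ± 0.10 in Ly6Chi, Ly6Cint and Ly6Cneg cells. In WT Ly6Cint cells it rose by 0.87 ± 0.10, and in WT Ly6Cneg cells it fell by 0.63 ± 0.12. In Ly6Cneg OC Jag1 was 2.51 ± 0.11 higher in cKO than in WT (3.4e-20), beside the high stromal markers of these libraries, whose part was not tested.

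Of 14 genes for Notch cleavage or nuclear partners of Rbpj, 9 fell and 1 rose in WT Ly6Chi culture (20.4% and 13.7% of all genes) and 10 fell and 1 rose in WT Ly6Cint culture (15.4% and 13.1%; medians -0.51 and -0.32, all genes -0.28 and -0.06). The coactivator gene Maml2 fell by 2.07 ± 0.10 in WT Ly6Chi cells. Spen, which encodes a corepressor that Rbpj recruits, fell by 0.89 ± 0.28. In cKO Ly6Chi culture Spen rose by 1.12 ± 0.28 (limma, adjusted p = 0.00229), and 4 of the 14 rose and 3 fell (15.5% and 26.3% of all genes). Of 8 Notch target genes, Dtx4 rose in all 6 culture comparisons, by 1.57 ± 0.10 to 3.48 ± 0.10. Classical targets were low, with group means of Hes1 between 5.37 and 7.59 and of Hey1 between 5.002 and 7.21. Hes1 fell by 1.97 ± 0.32 in WT Ly6Cneg culture (limma, adjusted p = 1.04e-05). Over the 6 culture comparisons, 1 or 2 of the 8 targets were higher and 0 or 1 lower in OC. Of all genes 6.55% to 16.4% were higher and 5.69% to 32.3% lower, so the counts of higher targets were near the share of all genes.

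The corepressors with which Bcl6 and Prdm1 act, 13 genes, went both ways, with 3 higher and 6 lower in OC in WT Ly6Chi cells (13.7% and 20.4% of all genes) and 7 higher and 4 lower in cKO Ly6Cint cells (16.4% and 32.3%). The 4 lower genes there were near the share of all genes. Tle3, a Groucho-type corepressor, fell, with differences of -3.23 ± 0.11 in WT Ly6Chi and -2.25 ± 0.11 in cKO Ly6Cint cells, and its relative Tle1 rose by 1.69 ± 0.08 in cKO Ly6Cint cells. Mta3, a subunit of the complex through which Bcl6 represses genes in B cells, fell by 1.44 ± 0.08 in WT Ly6Chi cells. In Ly6Chi BMM 4 of the 13 genes were higher and 6 lower in cKO (14.4% and 15.3% of all genes), and in Ly6Cint BMM 3 and 7 (25% and 14.7%).

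Across subsets of the same genotype and stage, 47 of 72 differences of the 6 genes were called, 30 higher and 17 lower in the subset with less Ly6C. Ly6Cint against Ly6Chi cells had the fewest calls in WT BMM and at the OC stage. In cKO BMM Ly6Cneg against Ly6Chi cells had as many. In WT OC 0 of 6 genes were called between Ly6Cint and Ly6Chi cells in limma, near the share of all genes, 2.9%. There 3 (Id1, Id2 and Id3) had an unadjusted p under 0.05. In cKO OC 3 were called against 5.27%, in WT BMM 2 against 15.6%, and in cKO BMM 3 against 6.83%. Ly6Cneg cells differed from Ly6Chi cells at 5 of 6 genes in WT BMM (20.6% of all genes), 3 in cKO BMM (27%), 5 in WT OC (19%) and 6 in cKO OC (23.5%). Against Ly6Cint cells the counts were 5 in WT BMM (23%), 4 in cKO BMM (27.5%), 5 in WT OC (13.6%) and 6 in cKO OC (24.7%). In cKO OC the Ly6Cneg cells were higher than Ly6Chi cells in Bcl6 (1.24 ± 0.09), Id1 (2.26 ± 0.18), Id2 (2.04 ± 0.11), Id3 (1.16 ± 0.12) and Rbpj (1.67 ± 0.12), and lower in Prdm1. Summed stromal markers were 13.98 to 14.53 in these Ly6Cneg and 8.12 to 8.70 in the Ly6Chi libraries, summed neutrophil markers 14.65 to 15.12 and 11.28 to 12.31, and their part was not tested. In WT OC the same comparison gave 0.73 ± 0.10 for Bcl6, 0.81 ± 0.12 for Id2, 0.89 ± 0.13 for Id3 and 0.54 ± 0.14 for Rbpj, each higher in Ly6Cneg cells, and -0.12 ± 0.20 for Id1 (limma, adjusted p = 0.762). The test of a difference between genotypes in these subset contrasts was not run.

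In WT OC, where no call was made between Ly6Cint and Ly6Chi cells, the largest of the 6 differences was -0.40 ± 0.18 for Id1 (limma, adjusted p = 0.391). With library weights Id1, Id2 and Id3 were called (-0.40, 0.24 and 0.25, adjusted p = 0.0202, 0.0181 and 0.0475), and Id2 also with only the compared libraries (0.24, 0.025). In WT BMM Bcl6 was 0.61 ± 0.09 higher in Ly6Cint than in Ly6Chi cells and Rbpj 0.38 ± 0.12, the latter lost without WT Ly6Chi replicate 2 (0.25) or 3 (0.38) or any 1 Ly6Cint library (0.37 to 0.39). In cKO BMM Id3 and Id2 were lower in Ly6Cint than in Ly6Chi cells, with differences of -0.95 ± 0.12 and -0.61 ± 0.11, and neither was called with only the compared libraries (limma, adjusted p = 0.118 and 0.161). In cKO OC the same differences were -1.01 ± 0.12 for Id3 and -0.46 ± 0.11 for Id2, the latter lost without cKO Ly6Cint replicate 1 (-0.36). In WT cells the Bcl6 difference of Ly6Cneg from Ly6Cint cells was -0.92 ± 0.10 at the BMM stage and 0.63 ± 0.10 at the OC stage.

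Whether the response to culture differed between genotypes was tested directly by the interaction of stage and genotype, in each subset. Of 18 interactions 13 were called, 6 positive and 7 negative. The counts were 4 of 6 genes in Ly6Chi cells (23.8% of all genes), 5 of 6 in Ly6Cint cells (26%) and 4 of 6 in Ly6Cneg cells (17.3%). In Ly6Chi and Ly6Cint cells Prdm1 rose more, and Id1 and Id2 fell more, in cKO than in WT. The Rbpj interaction was negative in both, where its WT culture differences (-0.00091 and -0.30) were not called. Its Ly6Cint call was lost without any 1 of 9 libraries and with the libraries shifted to the same median (-0.18). In Ly6Cneg cells the called interactions of Id1, Id2 and Rbpj had the opposite sign, at 1.89, 1.14 and 0.99, and that of Prdm1 the same sign. The Ly6Cneg interactions use the cKO OC libraries with high stromal markers, whose part was not tested. Without the Ly6Cneg interaction 9 of 12 were called. The F test of whether the culture difference was the same in the 3 subsets was called for all 6 genes in WT (21.7% of all genes) and in cKO (20.5%).

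Over the 12 group means, Prdm1 and Id1 had the strongest relation among the 15 pairs, with Pearson r = -0.92 and Spearman rho = -0.92. These points share the libraries and the contrast of stage, so the coefficient is given as a description. Groups with Prdm1 above 10.8 had Id1 at 9.98 or below, and the 4 groups with Prdm1 below 8.5 had Id1 at 10.64 or above. The pair differed where WT Ly6Cneg OC, with Prdm1 at 10.88, had Id1 at 7.94, while WT Ly6Chi BMM, with Prdm1 at 10.86, had Id1 at 9.63. Id2 and Rbpj had r = 0.85 and Bcl6 and Id1 r = 0.80, and Id1 and Id3, both inhibitors of E proteins, only r = 0.47.

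**Figure D5:**
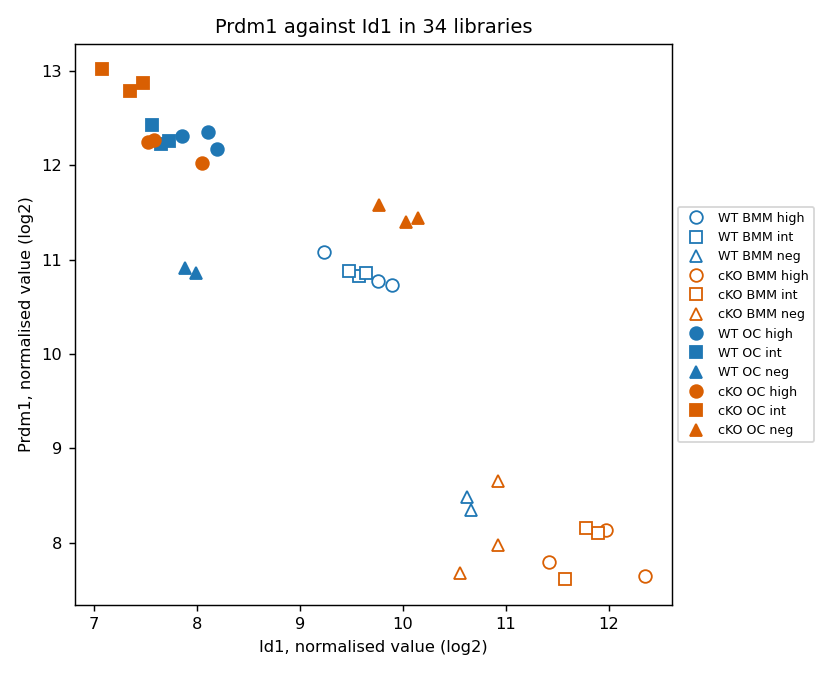
Prdm1 against Id1 (normalised values, log2) in 34 libraries, with open symbols for BMM, filled symbols for OC, shape for the Ly6C subset and colour for genotype. The cKO BMM libraries lie at the lower right (Prdm1 7.62 to 8.66) together with WT Ly6Cneg BMM, the cKO Ly6Cint OC libraries lie at the upper left (Id1 7.08 to 7.48), and WT Ly6Cneg OC lies below the band.

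Among 14441 genes whose highest group mean reached the median, those most like each member over the 12 group means were found by Pearson r. For Prdm1 they were Cyp4v3 (0.99) and Tmem175 (0.98). For Bcl6 they were Nlrp3, Stk10 and Pik3cg (each 0.96), and for Id1 Sdf2l1 (0.98), Lefty1 (0.97) and Csrp2 (0.97). Atf3 (0.96), Rab7b (0.93) and Slc7a8 (0.93) were most like Id2, and Abi2 (0.96), Ggh (0.96) and Arhgef10l (0.95) most like Id3. For Rbpj the highest were Crybb1 (0.94), Utp14a (0.93) and Tcf7 (0.92). None of the 6 genes was among the 3 most like any other of them.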

How the data were processed

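The authors deposited normalised values on a log2 scale, with 1 column per library and no statement of the transform. Per the submitters' processing notes the tools were bcl2fastq 2.17.1, CASAVA 1.8.4, deepTools, DESeq2 and HISAT2 on mm10, with no role stated for any. No source used here gives the counting, the annotation or the use of strand. Total reads are unknown. Steps between low values placed relative depth at 0.573 to 1.416 (a 2.47-fold range), and 23053 to 35171 genes per library had reads.

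A model of 12 group means was fitted by limma 3.58.1 (R 4.3.3) to the 34 libraries, with moderated variances (trended, robust) on 22 residual degrees of freedom. The planned design counted 36 samples, and 2 had no column. A gene was tested if its value passed 4.78 (5th percentile, leaving out values at the minimum of 3.896) in at least 3 libraries, which left 38873. Benjamini-Hochberg adjustment was made within each comparison. The steps were tested on simulated data. The 6 genes and all lists were chosen with earlier results of these data known. The text names the 6 genes, Irf8, at most 4 called genes per list and comparison with the largest differences, and the 3 genes most like each of the 6. Some results under this rule are not reported here. Of 38942 gene identifiers 38928 were found in GENCODE M21, and promoters come from RefSeq.

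Alternatives were no filter or a stricter filter on low values (25th percentile, 32236 genes), a shift of each library to the same median, quantile normalization, no trended or robust prior, library weights, the compared libraries alone, and each library left out in turn.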

Additional observations from a re-analysis of the deposited data

Results flagged for a closer look

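The response to culture differed between genotypes, by a test of the difference itself, in 13 results. In Ly6Chi cells the interaction (the cKO culture difference minus that of WT, log2 scale) was 2.90 for Prdm1, -2.62 for Id1, -0.79 for Id2 and -1.08 for Rbpj. In Ly6Cint cells it was 3.48 for Prdm1, -2.53 for Id1, -0.99 for Id2, -0.47 for Id3 and -0.47 for Rbpj. In Ly6Cneg cells it was 0.90 for Prdm1, 1.89 for Id1, 1.14 for Id2 and 0.99 for Rbpj. Stromal markers were high in the cKO Ly6Cneg OC libraries, and their part was not tested. The Ly6Cint calls of Id3 and Rbpj were lost without any 1 of 7 and of 9 libraries, and the Ly6Cneg call of Prdm1 without either of 2.

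The F test of whether the culture difference varied among the 3 Ly6C subsets was called for all 6 genes in each genotype. In WT cells the call of Id2 was lost without any 1 of 13 libraries, that of Id1 without either of 2 and that of Rbpj without 1. In WT cells F was 10.002 for Prdm1, 66.4 for Bcl6, 7.87 for Id1, 5.34 for Id2, 29.6 for Id3 and 7.999 for Rbpj. In cKO cells F was 23.1 for Prdm1, 138 for Bcl6, 124 for Id1, 161 for Id2, 27.6 for Id3 and 32.3 for Rbpj. No group had 4 or more libraries, so single libraries were not tested for standing apart.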

How the results depend on the processing

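Of 126 called results of the 6 genes, 101 kept their call under every alternative and 25 lost it under at least 1, and no called result turned its direction. The calls were 23 between genotypes, 31 between stages, 47 between subsets, 13 interactions and 12 F tests. Leaving out 1 library gave 22 to 25, 30 to 33, 45 to 49, 11 to 13 and 10 to 12, and a WT Ly6Cneg group left with 1 library was assumed to vary like the others. Uncalled differences that changed sign did so as follows, and the cause was not tested. With libraries shifted to the same median, Id1 in Ly6Cneg BMM between genotypes was -0.034, Rbpj in WT Ly6Chi culture 0.22, and the Ly6Cint interaction of Bcl6 0.21. Between WT Ly6Cint and Ly6Chi BMM, Prdm1 was 0.15, Id1 0.090 and Id2 0.038, and between cKO Ly6Cneg and Ly6Chi BMM Id3 was -0.11. Under quantile normalization Bcl6 and Id2 in Ly6Cint BMM between genotypes were 0.088 and 0.040, Rbpj in cKO Ly6Cneg culture -0.033, and Id3 between WT Ly6Cneg and Ly6Cint BMM 0.041. With library weights Rbpj in WT Ly6Chi culture was 0.024 and Prdm1 between WT Ly6Cint and Ly6Chi BMM 0.047. With 1 library left out, Bcl6 ran from -0.033 to 0.14 between genotypes in Ly6Chi OC and from -0.13 to 0.041 in the Ly6Chi interaction, and Rbpj from -0.14 to 0.14 in WT Ly6Chi culture. Between Ly6Cint and Ly6Chi cells, Id1 ran from -0.26 to 0.068 in WT BMM and from -0.41 to 0.050 in cKO BMM. Prdm1 ran from -0.073 to 0.10 in WT BMM, from -0.033 to 0.065 in WT OC and from -0.013 to 0.27 in cKO BMM. Between cKO Ly6Cneg BMM and the other subsets, Prdm1 ran from -0.036 to 0.45 (Ly6Chi) and from -0.13 to 0.36 (Ly6Cint). Leaving out the comparisons with cKO Ly6Cneg OC, chosen after seeing the data, left 18, 26, 35 and 9 calls. No paired analysis was possible because the labels number the samples serially and no number is shared between groups. Values near the level of 40 reads are limited by depth, and this touched 1 of 204 values.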
